A study of Mus musculus with 24 samples.

Results

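The smooth muscle contractile genes described here are Acta2, Actg2, Tagln, Cnn1, Myh11, Myocd, Smtn, Lmod1, Myl9 and Cald1, taken by gene symbol from the table of exon RPKM values (reads on a gene's exons, scaled to exonic length and library total), in which they make up 10 of 33079 genes. Each symbol matched 1 entry of the table. All 10 passed the filter for the tests, a mean over 0.5 RPM (reads scaled to the library total alone) in WT or KO, which 15112 genes passed. The libraries came from mouse embryonic stem (ES) cells left to differentiate in embryoid bodies, the aggregates in which such cells form derivatives of several germ layers. WT cells carried the Per2::Luciferase knock-in reporter alone, and KO cells carried the same knock-in and were deficient in Rev-erba and Rev-erbb, the genes of a pair of nuclear receptors that repress transcription as part of the circadian clock. The KO cells were a line established from picked colonies after exon deletions with CRISPR/Cas9, first in Rev-erbb and then in Rev-erba. On differentiation day 28 both genotypes received 100 nM dexamethasone, a glucocorticoid that sets the phase of cultured clocks, and RNA was taken every 4 h from 12 to 56 h afterwards. Each genotype contributed 12 libraries, 1 for each time point, and each library held the pooled RNA of 3 embryoid bodies.

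The median library total was 17424723.5 fragments, and those on exons of the table ran from 6.43e+06 to 1.03e+07 in the WT and from 6.18e+06 to 9.87e+06 in the KO libraries. No time point was repeated within a genotype, so every SD below holds the change over time together with the noise between libraries, and p-values measure the spread between libraries of different hours, which may be technical in part. Each genotype was represented by 1 cell line, and what the loss of the receptors did cannot be told apart from other ways in which these lines may differ. Values summed over all exons of a gene cannot show the deletion of single exons, so the deletions were not checked here and the genotypes are those of the labels.

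Smooth muscle contracts when myosin, made of the heavy chain Myh11 and light chains such as Myl9, pulls on filaments of the actins Acta2 and Actg2. Proteins bound to the actin filament, among them Tagln (transgelin), Cnn1 (calponin), Cald1 (caldesmon), Smtn (smoothelin) and Lmod1 (leiomodin), tune or stabilise it. Most of these genes are switched on by serum response factor (Srf) together with its coactivator myocardin (Myocd) at a short element called the CArG box, and several of them, Acta2, Tagln, Myl9 and Cald1 above all, are also used by fibroblasts and other cells that build stress fibres.

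RefSeq promoters on GRCm38.p6, each with 250 bases before and 50 bases after the transcription start, were at hand for 6 of the 10 genes, namely Acta2, Cald1, Cnn1, Lmod1, Myl9 and Smtn, in 7 entries because Cald1 has a second start. The 200 bases before the start are shown for the 3 contractile genes with the most CArG-like letters, for Srf and for the cardiac actin Actc1, with CArG boxes (CC, 6 letters that are each A or T, GG) and runs of 10 letters that miss a CArG box by 1 letter in capitals.
Acta2 (chr19:34255374-34255573, minus strand): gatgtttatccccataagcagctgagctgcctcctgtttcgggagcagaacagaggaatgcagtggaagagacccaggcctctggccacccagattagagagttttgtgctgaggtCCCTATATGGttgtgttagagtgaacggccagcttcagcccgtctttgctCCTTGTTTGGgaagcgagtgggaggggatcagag
Myl9 (chr2:156775264-156775463, plus strand): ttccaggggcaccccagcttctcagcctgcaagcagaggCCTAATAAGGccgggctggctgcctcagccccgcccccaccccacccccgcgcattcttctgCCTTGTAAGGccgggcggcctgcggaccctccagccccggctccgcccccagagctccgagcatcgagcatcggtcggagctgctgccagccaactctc
Lmod1 (chr1:135324613-135324812, plus strand): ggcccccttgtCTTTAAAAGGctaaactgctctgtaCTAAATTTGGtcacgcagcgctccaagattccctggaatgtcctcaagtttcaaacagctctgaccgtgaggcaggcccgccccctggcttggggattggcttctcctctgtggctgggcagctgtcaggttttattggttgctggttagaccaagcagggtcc
Srf (chr17:46556163-46556362, minus strand): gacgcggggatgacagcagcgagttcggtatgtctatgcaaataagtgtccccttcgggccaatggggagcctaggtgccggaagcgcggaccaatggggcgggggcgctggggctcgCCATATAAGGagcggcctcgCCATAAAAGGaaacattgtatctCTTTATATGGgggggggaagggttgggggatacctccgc
Actc1 (chr2:114052876-114053075, minus strand): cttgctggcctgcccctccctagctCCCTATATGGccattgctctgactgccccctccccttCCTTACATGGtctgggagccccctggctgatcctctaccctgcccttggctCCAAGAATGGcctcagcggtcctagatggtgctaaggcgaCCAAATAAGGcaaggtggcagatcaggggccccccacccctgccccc

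A complete CArG box stood in the promoter window of 1 of the 6 contractile genes, that of Myl9, at -161 to -152 from the start with the letters CCTAATAAGG. Across 32851 mouse promoters of the same length, 1.63% held a complete box. With 1 letter allowed to be off, windows of 4 genes matched, Acta2, Lmod1, Myl9 and Cald1, while 21.1% of all promoters and 6419 of 27025 genes had a match. The Cald1 match lay in the window of the upstream start, not in that at the start of the entry measured here. Acta2 had CCCTATATGG at -84 to -75 and CCTTGTTTGG at -34 to -25, Lmod1 had CTTTAAAAGG at -189 to -180 and CTAAATTTGG at -164 to -155, and Myl9 had CCTTGTAAGG at -99 to -90 besides its complete box. The Srf promoter held complete boxes at -82 to -73 and -62 to -53, and the promoter of Actc1 held 1 at -47 to -38. The letters CATTCC, read on both strands as the core of the site of TEAD factors, were in windows of 4 of the 6 genes (for Cald1, that of the upstream start) and in 14.7% of all promoters. The letters TAGGTCA, the core of a site of REV-ERB and ROR receptors, were in 0 of the 7 windows and in 2.61% of all promoters, and the palindromic glucocorticoid response element was in 0 of them and in 0.475% of all promoters. These are matches of letters within a short window and say nothing of sites elsewhere.

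On the RPKM scale the 10 genes spanned levels from among the most abundant mRNAs of these cells to among the lowest tested. RPKM is scaled to exonic length, so it can be compared between genes, and by that scale the order in WT was Acta2, Tagln, Cald1, Myl9, Actg2, Smtn, Lmod1, Myh11, Cnn1 and Myocd. The order of the means was the same in KO. Acta2 averaged 158 ± 14.2 RPKM in WT (SD, n = 12), above 99.0% of the genes tested, while Myocd averaged 0.270 ± 0.0699 RPKM, above 5.31% of them. The step from Smtn to Lmod1 was 2.97-fold, that from Lmod1 to Myh11 3.01-fold and that from Cnn1 to Myocd 6.89-fold in the WT means, and the ranges over the 12 libraries did not overlap at these steps. The ranges of the neighbours Myl9 and Actg2 overlapped in both genotypes, as did those of Myh11 and Cnn1, and those of Acta2 and Tagln overlapped in KO. The genes that fibroblasts also use (Acta2, Tagln, Cald1 and Myl9) stood at the top of the order. Myh11 and Cnn1, which are more restricted to smooth muscle, stood near 2 RPKM in WT. Other smooth muscle genes were not scarce, with WT means of 33.4 RPKM for the enteric actin Actg2 and 20.7 RPKM for Smtn. Together the 10 genes took a median of 0.233% of exon fragments in WT (0.219% to 0.264%) and 0.249% in KO (0.227% to 0.297%).

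**Figure D1:**
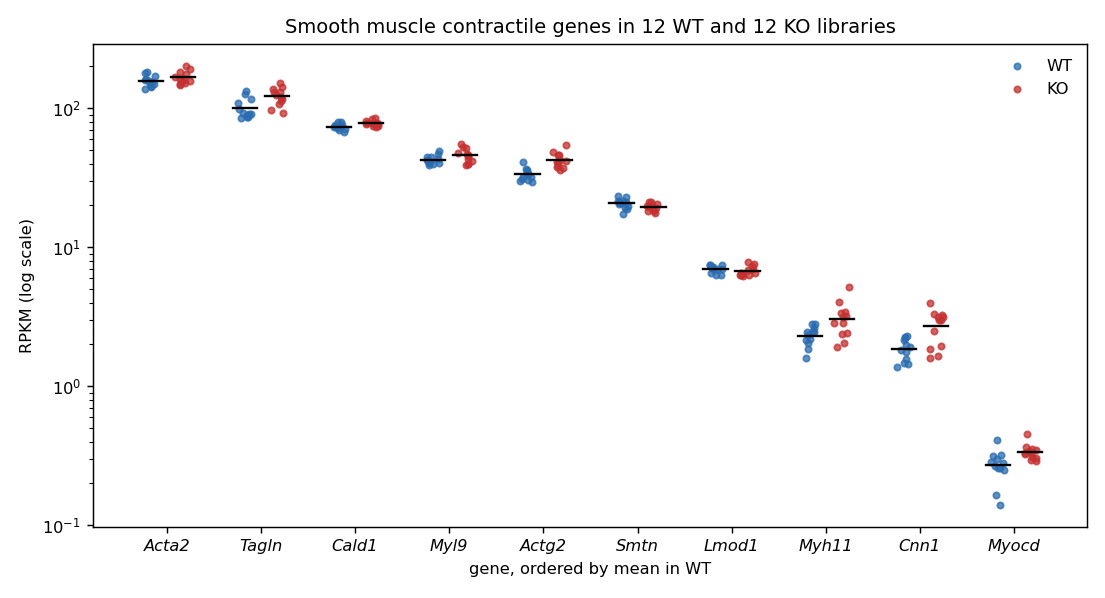
RPKM (log axis) of the 10 contractile genes, ordered by the WT mean, in 12 WT (blue) and 12 KO (red) libraries, with a black line at each mean. Levels run from 158 RPKM for Acta2 to 0.270 RPKM for Myocd in WT, and the WT and KO points of every gene overlap.

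To ask whether the contractile program differed between the genotypes, the 12 KO libraries were compared with the 12 WT libraries by limma on log2(RPKM + 0.1), with Benjamini-Hochberg adjustment over all 15112 genes tested and a threshold of 0.05. Of the 10 genes, 5 were higher in KO (Actg2, Tagln, Cnn1, Myh11 and Myocd), 0 were lower and 5 did not pass. Over all genes tested, 11.2% were higher in KO, 14.7% were lower and 25.9% passed in either direction. The median difference of the 10 genes was 0.18 on the log2 scale, beside -0.01 over all genes. The WT and KO ranges overlapped for all 10 genes. In bulk RNA, more cells of a type and more RNA per cell cannot be told apart.

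Among the actins, the enteric smooth muscle isoform Actg2 (uc012eoa.1, chr6:83512909-83536251, minus strand) had the smallest p of the group. Its RPKM ran from 29.7 through a median of 32.9 to 41.3 in WT and from 35.7 through 41.7 to 54.9 in KO. KO was higher at 11 of 12 time points, and the exception was 16 h, when WT had its highest value of Actg2. Mean RPKM was 33.4 ± 3.36 for WT and 42.6 ± 5.57 for KO, which is 1.28 times the WT mean, and the difference on the log2(RPKM + 0.1) scale was 0.35 (SE 0.06, limma adjusted p = 4.43e-04). Acta2 (uc008hgg.2, chr19:34240336-34255373, minus strand), the vascular isoform and the classical marker of smooth muscle and myofibroblasts, ran from 139 through 156 to 184 RPKM in WT and from 146 through 161 to 202 RPKM in KO. The Acta2 ranges overlapped over most of their width, and KO was higher at 8 of 12 time points. Its log2 difference was 0.08 with a 95% interval of -0.03 to 0.20 and did not pass (limma adjusted p = 0.290).

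Of the proteins bound to the actin filament, Tagln and Cnn1 rose. Tagln (uc009pgs.2, chr9:45929628-45936058, minus strand), an actin-bundling protein of the calponin family, ran from 85.4 through 92.1 to 134 RPKM in WT and from 91.9 through 122 to 153 RPKM in KO. KO was again higher at 11 of 12 time points with 16 h as the exception. The Tagln means were 101 ± 16.9 and 122 ± 18.2 RPKM, a log2 difference of 0.28 (SE 0.09, limma adjusted p = 0.0220). The end of Tagln overlaps the gene of the proprotein convertase Pcsk7 on the other strand by 95 bases, and the library kit does not mark strand, but Pcsk7 itself averaged 4.93 RPKM for WT and 5.06 RPKM for KO. Cnn1 (uc009onv.2, chr9:22099253-22109221, plus strand), which restrains the myosin ATPase, had the largest ratio of the 10 genes at 1.45. It ran from 1.39 through 1.87 to 2.32 RPKM in WT and from 1.60 through 2.99 to 3.98 RPKM in KO. The KO libraries of 12, 16, 52 and 56 h lay within the WT range of Cnn1, and those of the 8 hours in between lay above it. The log2 difference of Cnn1 was 0.48 (SE 0.14, limma adjusted p = 0.0137).

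The other filament proteins differed little. Cald1 (uc009bhk.1, chr6:34709444-34775469, plus strand), which blocks myosin from the actin filament in the resting state, ran from 67.0 through 74.2 to 79.8 RPKM in WT and from 73.1 through 77.9 to 84.5 RPKM in KO. Its log2 difference of 0.08 (SE 0.03) lay just outside the threshold (limma adjusted p = 0.0548), with KO higher at 9 of 12 time points. Cald1 passed in 7 of 13 alternative settings and in 5 of 24 fits that left out 1 library. It contains AK140592, an entry on the same strand that overlaps it by 1859 bases and averaged 0.0977 RPKM for WT and 0.134 RPKM for KO. Smtn (uc007hti.2, chr11:3517522-3539292, minus strand), a marker of contractile smooth muscle, had lower KO values at 11 of 12 time points. It ran from 17.4 through 20.9 to 23.6 RPKM in WT and from 17.7 through 19.5 to 21.2 RPKM in KO, so the KO range lay inside the WT range. At -0.09 on the log2 scale (95% interval -0.18 to 0.00) it did not pass (limma adjusted p = 0.139). Without the WT library of 56 h, in which Smtn had its lowest value, the difference was -0.11 and passed (limma adjusted p = 0.0405). Lmod1 (uc007cta.1, chr1:135324813-135368065, plus strand), a nucleator of actin filaments, ran from 6.27 through 7.05 to 7.51 RPKM in WT and from 6.22 through 6.56 to 7.89 RPKM in KO, and its log2 difference was -0.04 with a 95% interval of -0.13 to 0.04.

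For the myosin subunits, the heavy chain passed and the light chain did not. Myh11 (uc007yhe.2, chr16:14194527-14291408, minus strand), the heavy chain that defines mature smooth muscle, ran from 1.59 through 2.40 to 2.80 RPKM in WT and from 1.93 through 3.01 to 5.15 RPKM in KO. Its lowest WT value and its highest KO value both fell at 32 h, and KO was higher at 9 of 12 time points. The Myh11 log2 difference was 0.36 (SE 0.13, limma adjusted p = 0.0384). The call for Myh11 was lost in 10 of 24 fits that left out 1 library, namely the WT libraries of 12, 32, 44 and 52 h and the KO libraries of 20, 28, 32, 40, 44 and 48 h, with limma adjusted p up to 0.0709. It was also lost with no filter on low values (adjusted p = 0.0900), and Student's test on RPKM gave an adjusted p of 0.0516. Myl9 (uc008nnw.2, chr2:156775464-156781657, plus strand), the regulatory light chain whose phosphorylation starts contraction, ran from 39.1 through 42.0 to 49.0 RPKM in WT and from 39.0 through 45.7 to 55.6 RPKM in KO. Its log2 difference was 0.10 with a 95% interval of -0.02 to 0.21 (limma adjusted p = 0.224).

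Myocd (uc007jky.2, chr11:65176571-65269989, minus strand), the coactivator that drives the other contractile genes, was the scarcest transcript of the group. It ran from 0.140 through 0.273 to 0.409 RPKM in WT and from 0.293 through 0.331 to 0.452 RPKM in KO. The lowest KO value lay above the WT median, yet the WT library of 16 h exceeded 11 of the 12 KO libraries. The log2 difference was 0.26 (SE 0.09, limma adjusted p = 0.0322) with the pseudocount of 0.1 RPKM. For so scarce a transcript it depended on that pseudocount, and was 0.08 with 1 RPKM and 0.35 with 0.01 RPKM, past the threshold with each. It was no longer past the threshold without the WT library of 24 h (adjusted p = 0.0585) or the KO library of 20 h (adjusted p = 0.0569), nor without the 4 libraries of 52 and 56 h (adjusted p = 0.05003). These Myocd values rest on a mean of 24.7 fragments in a WT library and 30.2 in a KO library, for which counting alone gives a coefficient of variation of 20.1% and 18.2%, beside an observed 25.8% and 12.8%. For Cnn1 the mean fragments of a library were 64.4 and 94.0, and for Acta2 they were 7126 and 7471.

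**Figure D2:**
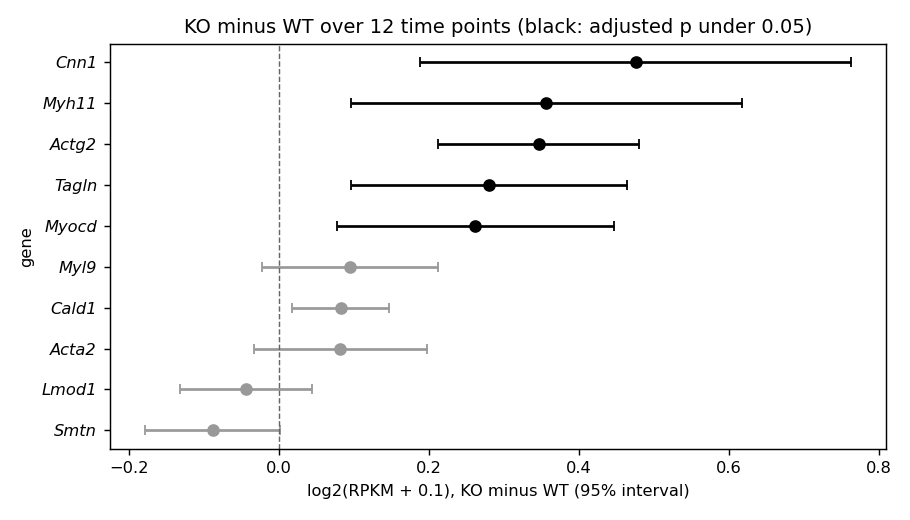
Difference in log2(RPKM + 0.1), KO minus WT, of the 10 contractile genes with 95% intervals built on the limma SE. The 5 genes in black, Cnn1, Myh11, Actg2, Tagln and Myocd, passed the adjusted threshold with differences from 0.26 to 0.48, and the 5 in grey did not.

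Without the 2 libraries of 20 h, an hour set aside after the values were seen because 7 of the 10 genes had their highest KO value there, 3 genes remained past the threshold, namely Actg2, Tagln and Cnn1. Within 12 to 32 h alone 1 of the 10 genes passed, which was Cald1 (log2 difference 0.16, limma adjusted p = 0.0468), beside 3.22% of all genes higher in KO. Within 36 to 56 h alone 2 passed, Actg2 (adjusted p = 0.0139) and Tagln (adjusted p = 0.0409), beside 5.94% of all genes. The Cald1 difference within 36 to 56 h was 0.007 (limma adjusted p = 0.931). Each of these fits used 6 libraries per genotype, and differences that did not pass were of a size like that over all hours for Actg2 (0.32), Myh11 (0.38) and Myocd (0.27) within 12 to 32 h, and for Myh11 (0.33) and Myocd (0.25) within 36 to 56 h, while that of Cnn1 was 0.31 within 12 to 32 h and 0.64 within 36 to 56 h.

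The KO and WT libraries did not differ by the same amount at each hour. A dependence on the hour cannot be told apart here from noise between libraries. Compared hour by hour, with 1 library on each side and therefore no error, KO exceeded WT in 1 of the 10 genes at 16 h, where the median ratio was 0.877, and in 9 of the 10 at 20 h and 40 h, where it was 1.26 and 1.23. The WT library of 16 h held the highest WT value of 6 genes, and the KO library of 16 h was above the KO median in 0 genes. The KO library of 56 h held the lowest KO value of 3 genes and was above the KO median in 1. In these libraries the median over all genes stayed near the genotype mean. Scaling to library totals favours that in any library, so it does not show these libraries to be otherwise ordinary. The median deviation from the genotype mean was 0.25 on the log2 scale for the 10 genes in the WT library of 16 h beside 0.00 over all genes, and 0.27 in the KO library of 20 h beside 0.02.

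To test for change after dexamethasone, a linear slope and a 24 h cosine were fitted in each genotype by limma, with the slope given as the change in log2(RPKM + 0.1) from 12 to 56 h. None of the 10 genes had a slope past the adjusted threshold, where 2.38% of all genes did in WT (1.26% falling and 1.11% rising) and 2.38% in KO (1.04% falling and 1.34% rising). Tagln came closest, falling in WT from 117, 134 and 127 RPKM at 12, 16 and 20 h to 91.2, 85.4 and 86.6 RPKM at 48, 52 and 56 h, and the slope was -0.48 (SE 0.14, unadjusted p = 0.00314, limma adjusted p = 0.0820). Its slope in KO was -0.28 (adjusted p = 0.333), and the difference between the Tagln slopes was 0.20 (SE 0.20, adjusted p = 0.889). Cald1 went the other way in WT, from 67.0 RPKM at 12 h to 79.8 RPKM at 52 h, with a slope of 0.16 (SE 0.06, limma adjusted p = 0.158). In KO the Cald1 slope was -0.10, and the difference between the genotypes was -0.26 (SE 0.08, unadjusted p = 0.00488), which did not pass adjustment (limma adjusted p = 0.687). No gene of the 15112 had a slope difference past the adjusted threshold (0%), while 6.38% had an unadjusted p under 0.05, and Cald1 was 1 of the latter. An unadjusted p under 0.05 for the slope itself, which Tagln and Cald1 had in WT and 0 of the 10 genes in KO, was found for 15.2% of all genes in WT and 16.7% in KO.

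No contractile gene had a 24 h rhythm past the adjusted threshold either, against 0.0463% of all genes in WT and 0.0728% in KO. In KO, Lmod1 had the smallest unadjusted p of the group, 0.00134, with an amplitude of 0.13 on the log2 scale and a fitted peak at 20.1 h on the 24 h cycle (limma adjusted p = 0.406). Its KO values were highest at 20 h and next highest at 44 h, at 7.89 and 7.54 RPKM. Tagln in KO followed with an amplitude of 0.18 (unadjusted p = 0.0296, limma adjusted p = 0.594), and its KO peaks of 153 and 142 RPKM fell at 20 and 40 h. Over all genes, 7.92% had an unadjusted rhythm p under 0.05 in KO and 7.57% in WT, where 0 of the 10 genes did. A difference in rhythm between the genotypes passed for 0 of the 10 genes by adjusted p and for 0% of all genes, whereas 4.82% of all genes had an unadjusted p under 0.05.

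**Figure D3:**
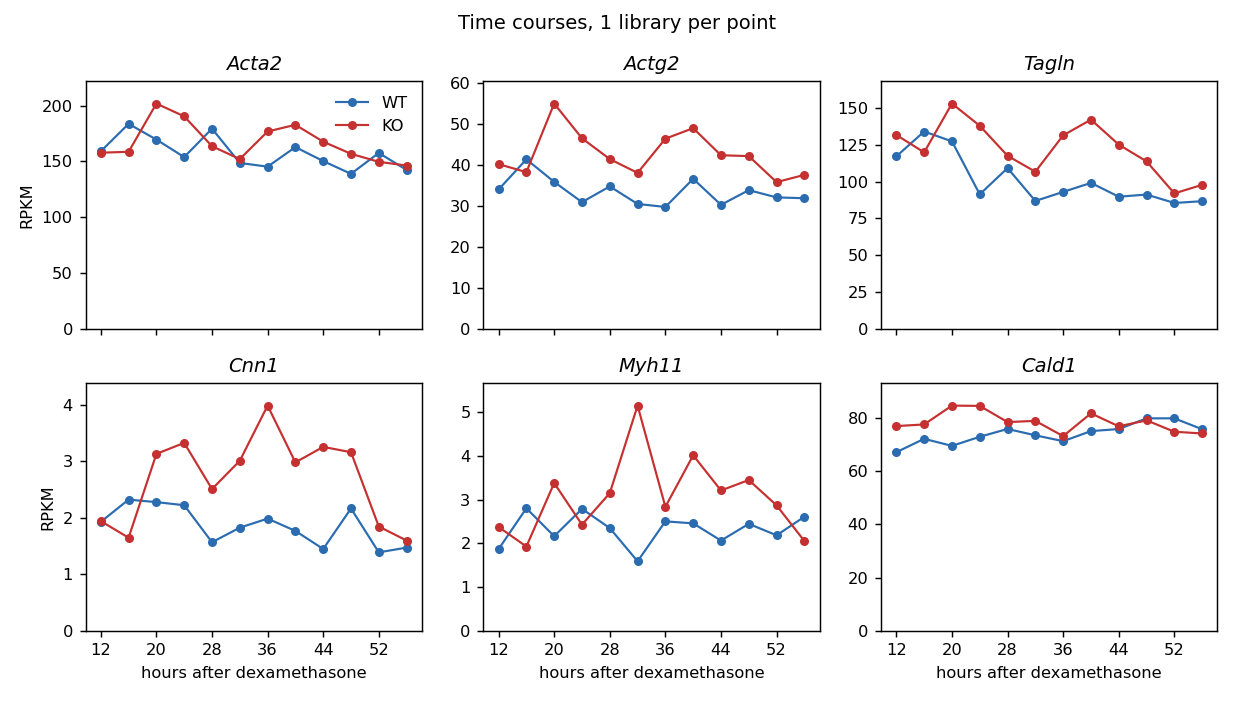
RPKM of Acta2, Actg2, Tagln, Cnn1, Myh11 and Cald1 from 12 to 56 h after dexamethasone in WT (blue) and KO (red), with 1 library per point. Tagln fell in WT from 134 RPKM at 16 h to 85.4 RPKM at 52 h without passing the adjusted threshold, and KO peaked at 20 h for Acta2, Actg2 and Tagln.

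The 10 genes did not move as 1 unit from library to library. Over the 24 libraries, centred within genotype, the 45 pairs had a median Pearson r of 0.25, with 15 pairs over 0.5 and 1 under -0.5. The libraries belong to 2 time courses and are not independent of each other, and the permutation tests, which shuffled libraries within genotype 100000 times, do not allow for that. The closest pair was that of the actins, Acta2 and Actg2, with r = 0.87 and rho = 0.84 (permutation p = 1e-05 for each, the smallest these permutations can give, adjusted over 45 pairs 1.12e-04 for r and 2.25e-04 for rho), and r was 0.79 without the 2 libraries farthest from the Acta2 median. Acta2, Actg2, Tagln, Lmod1 and Myl9, a set chosen after their values were seen, had r from 0.63 to 0.87 in all 10 pairs among them, from 0.46 to 0.81 in WT alone and from 0.67 to 0.95 in KO alone. Smtn, Myocd and Cald1 had no r over 0.5. To the other 9 genes, r ran from -0.30 to 0.27 for Myocd, from -0.04 to 0.41 for Cald1 and from -0.52 to 0.01 for Smtn. The r of Smtn to Tagln was -0.52 and the rho -0.59 (permutation p = 0.0105 and 0.00356, adjusted over 45 pairs 0.0338 and 0.0134), and r was -0.43 without the 2 outermost libraries. Cald1 and Tagln had r = -0.62 over the 12 WT libraries and 0.64 over the 12 KO libraries, a pair picked after its values were seen and a difference that was not tested.

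**Figure D4:**
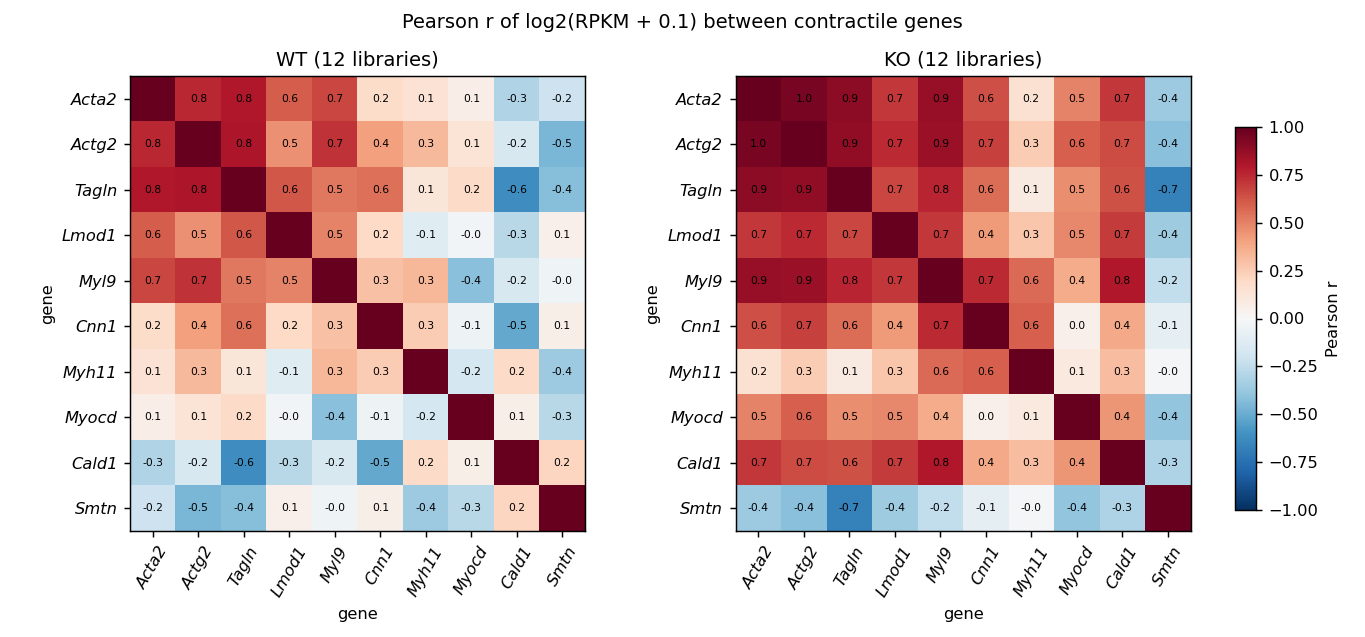
Pearson r of log2(RPKM + 0.1) between the contractile genes over 12 WT libraries (left) and 12 KO libraries (right), red for positive and blue for negative. Acta2, Actg2, Tagln, Lmod1 and Myl9 form a red block in both, and Cald1 is negative to Tagln in WT (-0.62) and positive in KO (0.64).

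The mean of the 10 standardized genes was compared, over the 24 libraries, with 11807 genes of at least 1 RPKM in both genotypes. These included contractile genes, and 1.85% of the 11807 had r over 0.5. Outside the group the most alike were Wisp2, Tpm2, Mrgprf, Anxa2 and Cnn2, with r of 0.77, 0.75, 0.75, 0.73 and 0.71. In WT alone their r was 0.53, 0.48, 0.56, 0.72 and 0.74. In KO alone it was 0.85, 0.87, 0.81, 0.79 and 0.71. Tpm2 encodes a tropomyosin of the actin filament and Cnn2 the calponin of non-muscle cells. Wisp2 and Mrgprf encode a secreted matrix-associated protein and an orphan receptor, and Anxa2 a calcium-dependent membrane-binding protein. This likeness is a description over libraries that share 2 time courses.

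The paralogs of the contractile genes, which serve non-muscle, cardiac or skeletal cells, had calls in both directions, as did all genes tested. Of 19 paralogs 16 were tested, and 6 were higher in KO, 3 lower and 7 not past the threshold, with a median log2 difference of 0.05. The shares over all genes tested were 11.2% higher and 14.7% lower, and the paralogs were not tested against them. The cardiac actin Actc1 rose from 11.2 ± 3.33 to 22.1 ± 4.98 RPKM (log2 difference 1.01, limma adjusted p = 6.9e-05), at 12 of 12 time points. The other paralogs that rose were Tagln2 (0.35), Cnn3 (0.29), the non-muscle myosin heavy chain Myh9 (0.22), the cytoplasmic actin Actg1 (0.15) and the light chain Myl12b (0.12). A second non-muscle heavy chain, Myh10, fell from 45.5 ± 4.20 to 33.9 ± 2.95 RPKM, and Smtnl2, a relative of smoothelin, fell from 8.30 ± 0.516 to 6.58 ± 0.656 RPKM, each lower in KO at all 12 time points. Tagln3, the neuronal transgelin, fell by 1.15 on the log2 scale (limma adjusted p = 0.0426) from a low level of 0.694 RPKM. The differences of Acta1 (0.45), Actb (0.07), Cnn2 (0.04), Myl12a (0.04), Myh14 (-0.09) and the myocardin relatives Mkl1 (0.02) and Mkl2 (-0.03) did not pass, and Smtnl1, Lmod2 and Lmod3 were below the filter. In 1 transcript checked for each of the 10 contractile genes, 0 stretches of read length were shared with transcripts of other genes.

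Calls among regulators of the program went in both directions, as they did over all genes tested. Of 35 genes, 6 were higher in KO, 5 lower and 24 not past the threshold, with a median of 0.00. Over all genes tested, 11.2% were higher, 14.7% lower and 25.9% either, and the regulators were not tested against them. Srf itself averaged 7.69 ± 0.384 RPKM for WT and 7.72 ± 0.437 RPKM for KO (log2 difference 0.01, limma adjusted p = 0.922). The 5 largest rises were those of Heyl (0.40), a transcription factor downstream of Notch, the Notch ligand Jag1 (0.33), the mesenchymal homeobox factor Prrx1 (0.31), the receptor Notch3 (0.31), which vascular smooth muscle expresses, and the growth factor Pdgfb (0.25). The genes that fell were Foxo4 (-0.38), a forkhead factor that binds myocardin, Gata4 (-0.32), Gata6 (-0.28), Mef2c (-0.18) and Notch2 (-0.17).

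Among the signalling genes that start and stop contraction, calls again went both ways, as over all genes tested. Of 34 entries tested (33 genes, with 2 entries of Ppp1r12b), 7 were lower, 3 higher and 24 not past the threshold, with a median of -0.04. Over all genes, too, more were lower (14.7%) than higher (11.2%), and the list was not tested against them. Mylk, the kinase that phosphorylates Myl9, fell from 25.7 ± 2.87 to 20.2 ± 2.55 RPKM (log2 difference -0.35, limma adjusted p = 6.9e-04), with KO higher at 1 of 12 time points. Other genes that fell were Prkg1 (-0.27), the kinase through which cyclic GMP relaxes smooth muscle, its substrate Mrvi1 (-0.32), the calcium release channel Itpr1 (-0.27) and the phosphodiesterase Pde3a (-0.31). The genes that rose were Pln (0.57), which restrains calcium uptake into the reticulum in heart and smooth muscle, the serotonin receptor Htr2b (0.30) and the phosphatase subunit Ppp1cb (0.10).

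Genes of the actin cytoskeleton and of the attachments of muscle cells had more rises than falls. Of 37 tested, 14 were higher in KO, 5 lower and 18 not past the threshold, with a median of 0.05. Beside them stand 11.2% higher and 14.7% lower over all genes tested, against which the list was not tested. The largest rises were Pgm5 (0.60), a protein of adherens plaques, the intermediate filament Des (0.58), the tropomyosin Tpm2 (0.51), Synpo2 (0.34) and Ldb3 (0.31), the last a protein of striated Z-discs. Tpm2 rose from 26.7 ± 2.76 to 38.3 ± 5.39 RPKM and Des from 4.13 ± 0.798 to 6.19 ± 0.838 RPKM, both at 12 of 12 time points. The genes that fell were the Z-line protein Pdlim3 (-0.46), the integrin Itga8 (-0.37), the focal adhesion proteins Vcl (-0.16) and Tgfb1i1 (-0.16) and the caveolar protein Ptrf (-0.11).

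**Figure D5:**
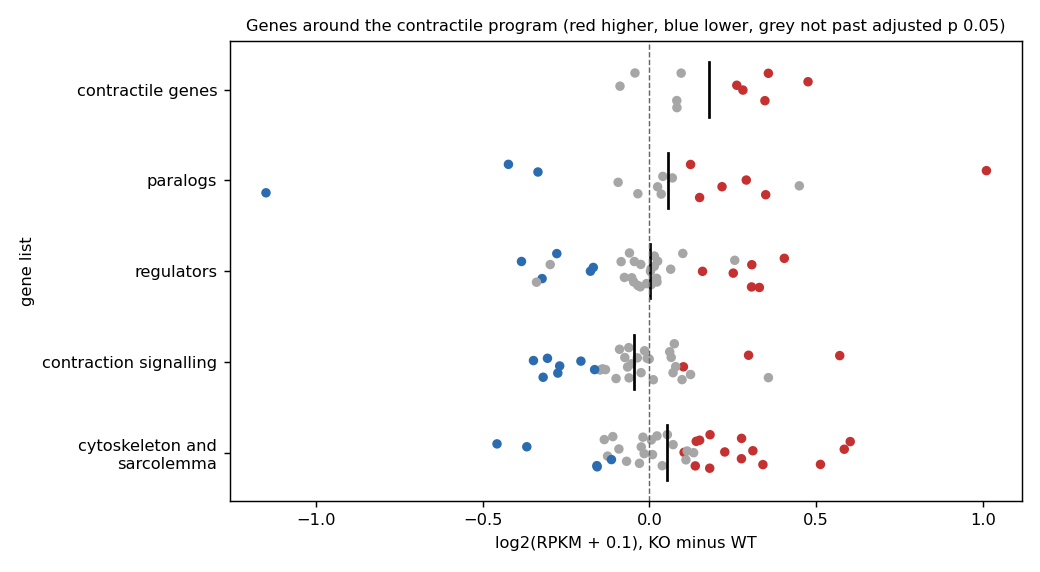
Difference in log2(RPKM + 0.1), KO minus WT, for each tested gene of 5 lists, with a black line at each list's median, red for genes higher and blue for genes lower at an adjusted p under 0.05. The medians were 0.18 for the contractile genes, 0.05 for paralogs, 0.00 for regulators, -0.04 for contraction signalling and 0.05 for cytoskeleton and sarcolemma.

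Some markers of other cell types also differed between the genotypes, beside 11.2% of all genes tested that were higher in KO and 14.7% lower. The marker lists are short and were not tested against all genes. Of 8 cardiac markers 7 were higher in KO and 1, Tnnt2, was lower (log2 difference -0.31), with a median of 0.81, and their summed level ran from 45.6 to 83.1 RPKM in WT and from 59.1 to 118 RPKM in KO. Of 7 fibroblast markers 3 were higher, the collagens Col1a1, Col1a2 and Col3a1, and 2 were lower, Lum and Pdgfra, with sums from 2920 to 3447 RPKM in WT and from 3127 to 4087 RPKM in KO. Of 6 pericyte markers 2 were higher and 0 lower, with sums from 28.8 to 36.7 and from 27.0 to 34.7 RPKM. The counts of genes higher and lower were 2 and 0 of 6 for endothelium (5.35 to 18.7 and 9.36 to 17.5 RPKM), 1 and 0 of 5 tested for skeletal muscle (3.60 to 13.2 and 4.36 to 14.9 RPKM), and 0 and 1 of 4 tested for neurons (3.54 to 32.2 and 2.17 to 11.1 RPKM). Myod1 and Rbfox3, which define skeletal myoblasts and neurons, were below the filter. No marker was at 0 in all libraries, and the part of these cell types in the differences of the contractile genes was not tested.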

How the data were processed

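RNA was measured by polyA-selected, paired-end RNA-seq in 12 WT and 12 KO libraries. The authors trimmed the reads, aligned them to the mouse genome (GRCm38, also called mm10), removed alignments of low mapping quality, counted reads over exons with HOMER and deposited RPKM, which are scaled to exonic length and library total. The exonic lengths that the authors deposited beside them were used with the totals to recover fragments per gene, for depth only. The submitters' processing notes give Trimmomatic 0.36 and STAR 2.5.4b, and SAMtools and HOMER with no version. The table held 0 columns of other samples.

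Genes with a mean over 0.5 RPM in WT or KO were tested on log2(RPKM + 0.1), so that fold changes of low genes are understated, by limma (3.58.1, under R 4.3.3), with Benjamini-Hochberg adjustment over all 15112 genes and a threshold of 0.05. Change over time was fitted as a linear slope with a 24 h cosine and sine in each genotype. The study used MetaCycle for rhythms, which was not run here, and the cosine stands in its place. The fits were tested on simulated data with independent normal noise in each library. Such data cannot show how the p-values behave where libraries of a time course or hour share deviations. Correlations, promoter motifs and counts used scipy 1.17.1, numpy 2.4.6 and pandas 2.3.3 under Python 3.11.15, and matplotlib 3.10.9 drew the figures.

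The contractile genes and the gene lists were chosen with earlier results of these data known. Named were all 10 genes, all paralogs, Srf, Mkl1 and Mkl2, at most the 5 genes per list and direction with the largest difference among those past the threshold, and the 5 genes most like the mean of the contractile genes. Markers singled out by name and genes named for single settings were chosen after their values were seen. WT and KO libraries share hours but no label ties them, and whether libraries of the same hour deviate together was checked across genes. The alternatives covered the pseudocount, the filter, quantile normalization, the variance trend, time terms, Student's test, a time-point block, early and late hours, the period, and leaving out each library. Those without the 20 h or the 52 and 56 h libraries were added after the data were seen.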

Additional observations from a re-analysis of the deposited data

How the results depend on the processing

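The count of 5 contractile genes higher in KO was 2 with no filter on low values (Actg2 and Cnn1), 1 within 12 to 32 h, 2 within 36 to 56 h and 3 without the libraries of 20 h, and leaving out 1 library at a time gave 3 to 6, with 3 without the KO library of 20 h. With fewer libraries in these spans, all genes higher in KO were 487 and 897 in place of 1693, and all genes lower in KO were 628 and 1006 in place of 2225. Leaving out 1 library gave 0 to 1 genes lower in KO (Smtn, without the WT library of 56 h), and 1 was lower without the 52 and 56 h libraries (Smtn, -0.13, limma adjusted p = 0.0241). Tagln was lost under quantile normalization (adjusted p = 0.0572), where the Acta2 difference reversed to -0.037. Across 13 alternatives limma adjusted p for Actg2 ran from 1.35e-04 to 0.0768, for Cnn1 from 0.00672 to 0.289 and for Tagln from 8.09e-04 to 0.315.

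The genes falling over time in WT were 0, but 1 (Tagln) under quantile normalization or a slope without cosine and sine, and 0 to 1 with 1 library left out.

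Of the other lists, contraction signalling had 3 genes higher in KO but 5 with a pseudocount of 1 RPKM, a variance trend or Student's test, 6 with time terms and 0 within 12 to 32 h or 36 to 56 h, and 7 lower but 1 in 12 to 32 h and 4 in 36 to 56 h. Within 12 to 32 h and 36 to 56 h, regulators had 1 and 1 higher and 3 and 2 lower, cytoskeleton and sarcolemma had 6 and 9 higher and 2 and 2 lower, and paralogs had 2 and 3 higher. The spans of 12 to 32 h and 36 to 56 h also hold fewer libraries, and the cause of these changes was not tested.

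Deviations of WT and KO libraries of the same hour had a mean correlation of 0.21 over 11872 genes, beside -0.02 for different hours. They ranged from -0.23 to 0.42, and since not every hour showed a positive value, the hours were not taken as pairs, although part of the deviation may be shared. With the time point as a replicate block, 4 contractile genes were higher in KO, since Myh11 did not pass (limma adjusted p = 0.0912), and 0 were lower. Depth limits Myocd most, at 12 to 44.5 fragments per library.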
